A study of Mus musculus with 40 samples.

Results

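Cells grown out of 5 YUMM1.7 tumours of passage F2 were compared with 3 cultures of the parental YUMM1.7 line, for the RNA signal of annotated repeat copies. The comparison uses every library that the labels give to the F2 passage and to YUMM1.7 cells, 8 of the 40 libraries of the series. YUMM1.7 is a mouse melanoma line, obtained from a cell bank, that was derived in C57BL/6 mice. The series followed the line through serial transplantation, and F0, F1 and F2 are the names of successive passages. Each F2 library (tumours A to E) came from cells of 1 dissociated tumour kept in culture for 1 to 3 passages, and the parental libraries (cultures 1 to 3) came from the line itself. All 8 libraries are poly(A) RNA from cells in culture. The labels give the same tissue (dissociated tumour) and cell type (melanoma) for both groups, a treatment of F2 for the tumours and of none for the cultures. The host animals' strain, sex and age are not given in the labels of these groups. The labels do not say that the 3 parental libraries were independent cultures, and the F2 passage occurs once in the series. P-values therefore measure the spread between libraries and not between repeats of the passage. Unless stated otherwise, those of the fits take that spread from all 40 libraries of the series. Those of the exact permutation tests rest on the 8 libraries alone.

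A large part of the mouse genome descends from transposable elements, of which most copies are silent and decayed. Endogenous retroviruses such as the intracisternal A particles (IAP) have long terminal repeats (LTRs) that can act as promoters. LINE-1 elements carry their own promoter and encode a reverse transcriptase, and SINEs such as B1 and B2 borrow that machinery. In poly(A) RNA most repeat signal comes from copies that are embedded in the exons and introns of genes, so that a copy's signal can report the level of its host transcript. Copies are held silent by DNA methylation and by KRAB zinc finger proteins, DNA-binding repressors whose genes lie in large tandem clusters. In tumour cells loss of this silencing is known to be able to set off an interferon response.

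Recovered reads in repeats numbered 1619774 to 2001795 in the F2 libraries and 1709100 to 1861048 in the cultures. Signal is the deposited value, reads divided by 1 factor per library, and 1 read was worth 0.909 to 1.09 of signal. The submitters describe a first and a second sequencing batch and state that F2 cells were sequenced again in the second. They do not assign libraries to runs, so that sequencing batch and passage cannot be told apart here. Replicates were about equally tight in both groups. Pairs of libraries correlated at 0.847 to 0.924 within F2 and 0.855 to 0.920 within the cultures, over the log2 signal of 10091 copies with a mean of at least 20. No library was a copy of another. Markers of the labelled cell type were mostly out of reach of a repeat measurement. Of 20 melanocyte lineage genes, 10 have repeat copies in exons, and Tyr, Oca2 and Mc1r were at 0 in all 8 libraries. Of 12 immune genes with copies, 6 (Ptprc, Cd4, Cd3e, Csf1r, Laptm5 and Tyrobp) were at 0 in all 8, and the list summed to 10.0 to 28.4 in F2 and 9.09 to 17.4 in the cultures. The endothelial list summed to 0 to 3.64 in F2 and 0 to 1.94 in the cultures, with Pecam1 and Vwf at 0.

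Of the 7 copies that differed between the groups, 4 lie in or beside 1 pseudogene, Gm13230 (ENSMUSG00000082082.1), at 145446740 to 145450888 on chromosome 4 of mm10 and on the plus strand. It is annotated in GENCODE M21 as a transcribed unprocessed pseudogene and lies 59871 bases from Zfp990, in the distal cluster of zinc finger genes on that chromosome. The called copies in its exon are pieces of MurSatRep1 and MMSAT4. Copies with these names often overlap tandem zinc finger coding sequence. Below are the shorter called MurSatRep1 copy, a called MMSAT4 copy and, between them, a tested MurSatRep1 copy that was not called. They are shown because they lie in the part of the exon that holds the called copies. A longer called MurSatRep1 copy, which had the most signal of these, is not printed. They are given 5′ to 3′ on the plus strand of GRCm38 and were read from the GENCODE M21 transcript. Capitals mark matches to ACNGGNGANAANCC, a DNA form of the linker between C2H2 zinc fingers (N is any base), and the MMSAT4 copy holds none.
MurSatRep1 chr4:145449610-145449810: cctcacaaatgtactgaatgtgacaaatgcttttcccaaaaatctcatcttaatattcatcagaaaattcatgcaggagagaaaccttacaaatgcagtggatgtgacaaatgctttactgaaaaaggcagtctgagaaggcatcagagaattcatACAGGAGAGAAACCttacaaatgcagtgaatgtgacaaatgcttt
MurSatRep1 chr4:145450589-145450781: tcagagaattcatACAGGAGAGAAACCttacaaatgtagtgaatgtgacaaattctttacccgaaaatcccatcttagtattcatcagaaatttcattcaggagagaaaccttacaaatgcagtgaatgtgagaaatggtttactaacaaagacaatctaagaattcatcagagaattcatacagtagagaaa
MMSAT4 chr4:145450782-145450875: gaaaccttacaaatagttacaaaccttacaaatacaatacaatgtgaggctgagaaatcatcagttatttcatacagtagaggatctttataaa

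The linker motif was found 7 times in the transcript of 1575 bases, and 4 of the 6 gaps between neighbouring matches measured 84 bases, the length of 1 finger with its linker. Among tested copies in exons that could be read whole from transcripts, on both strands, the motif occurred in 68.8% of 772 MurSatRep1 copies and 57.1% of 359 MMSAT4 copies. It occurred in 0.0368% of the 10877 other copies, in 6.16% of all 12008 and in 5.16% of the 3568 copies of 150 to 250 bases. Copies with these repeat names in exons are therefore mostly zinc finger sequence by this motif. Reads from near-identical zinc finger arrays may be assigned among several genes. The sources used here do not give the authors' handling of such reads, so the assignment to Gm13230 is uncertain.

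Few repeat copies separated F2 cells from parental cultures at the threshold. Of 33215 tested copies 7 rose (0.0211%) and 0 fell (0%) in F2, at an adjusted p under 0.05 (limma on log2(signal + 1), 1 mean for each of 11 groups over 40 libraries, Benjamini-Hochberg). In all, 2378 copies (7.16%) had an unadjusted p under 0.05. The 7 were IAPEY4_I-int, Charlie29a, RMER15, MMSAT4, 2 MurSatRep1 copies and ORR1D1, and all but Charlie29a lie on chromosome 4, which holds 6.54% of tested copies. RMER15, MMSAT4 and the 2 MurSatRep1 copies lie together in or beside Gm13230, so that these calls are not independent of each other. An excess of calls on the chromosome was not tested. In all 7 the parental cultures had the lowest mean of the 11 groups of the series. The edgeR quasi-likelihood test on recovered reads called 5 copies higher and 2 lower, and DESeq2 29 higher and 2 lower. The smallest adjusted p of edgeR (0.000378) was at an L1MdF_IV copy that was high in 1 culture only. That of DESeq2 (4.52e-22) was at an ID_B1 copy on chromosome 5 that was high in 2 tumours only. Both copies are described below, and some calls of these tests thus rest on 1 or 2 libraries. All 7 were among the calls of DESeq2, and 4 of them among those of edgeR. The calls rest on the spread pooled over all 40 libraries. In a fit of the 8 libraries alone 2 copies were called, and none of the 7 was among them. Without culture 1 the fit made 2 calls, both among the 7. It made 4 without culture 2 (3 of the 7 among them), 10 without culture 3 (4 of the 7), 4 without tumour D (all among the 7) and 12 without tumour E (all 7 among them). In 3 tumours of another passage the labels name a second library each, so that the 40 libraries stand for fewer tumours and cultures. A fit of 37 libraries without those second ones, chosen after seeing the data, called 6 of the 7 copies and no other.

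The largest difference among the 7 was at an IAPEY4_I-int provirus of 8319 bases at chr4:3192212-3200530, which lies between genes, 6854 bases past the vomeronasal receptor gene Vmn1r3 and 41525 bases before AI838599. It is an endogenous retrovirus of the IAP group. Its signal was 1017, 245, 106, 407 and 389 in tumours A to E, against 0.968, 18.2 and 7.72 in cultures 1 to 3. The groups do not overlap, and the lowest tumour, C, lies well above the highest culture. The copy rose in F2 by 5.61 on the log2 scale (SE 0.84, limma adjusted p = 0.00163). In a bulk library more cells that express the copy and more RNA per expressing cell cannot be told apart. The sources used here do not give the authors' handling of reads that match several copies, so the assignment to this copy is uncertain. Without culture 1, which held 1 read, the fold change was 4.70 and the limma adjusted p = 0.0686. The 4 F0 tumours had 93.2, 105, 0 and 143 and the 4 F1 tumours had 280, 516, 250 and 307. Mean signal thus stood at 8.95 in the parental cultures, 85.3 at F0, 338 at F1 and 433 at F2, and F1 and F2 overlap.

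By the reads assigned to it, this 1 provirus made up a large part of its subfamily in F2. It gave 39.4%, 20.9%, 5.94%, 19.7% and 31.6% of the summed IAPEY4_I-int signal in tumours A to E, against 0.0907%, 1.63% and 0.741% in cultures 1 to 3. IAPEY4_I-int summed to 1769 ± 590 in F2 and 1075 ± 37.5 in the cultures (SD, n = 5 and 3), and without the copy to 1336 ± 416 in F2 and 1066 ± 31.7 in the cultures. Of 15 tested IAPEY4_I-int copies, out of 105 annotated, 10 had a log2 fold change above 0 and 1 was called. The sum over all copies was not called (limma adjusted p = 0.73). Over copies outside exons alone it rose, to 896 ± 421 in F2 against 325 ± 66.3 in the cultures, with a log2 fold change of 1.38 and limma adjusted p = 0.0268 among 915 subfamilies. The call rests on this copy. With it left out, in a fit added after seeing the data, the sum outside exons was 463 ± 110.5 in F2 and 316 ± 72.5 in the cultures, with a log2 fold change of 0.54 and limma adjusted p = 0.999.

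Charlie29a, a remnant of a hAT DNA transposon of 329 bases, rose at chr7:98876032-98876360. The copy lies between genes, 20837 bases from Wnt11, which encodes a secreted Wnt ligand, and 8661 bases from Uvrag, which encodes an autophagy factor. Its signal was 30.1, 20.8, 6.32, 75.5 and 19.99 in tumours A to E, against 1.94, 0 and 0.966 in cultures 1 to 3. All 5 tumours lie above the 3 cultures, whose values stand for 2, 0 and 1 reads. The fitted difference on the log2(signal + 1) scale was 3.74 (SE 0.64, limma adjusted p = 0.00504). It depends on the added 1 and is no bound. An Arthur1B copy 5600 bases upstream, at chr7:98870112-98870432, had 44.7, 19.7, 3.16, 53.5 and 14.5 in tumours A to E, against 0.968, 4.04 and 1.93 in cultures 1 to 3. Its groups overlap, and it was not called (limma adjusted p = 0.128). It is named after its values were seen. The Charlie29a call was lost without culture 2 (limma adjusted p = 0.0778) and with edgeR (adjusted p = 0.125). With 5 added in place of 1 it was lost too, at a fold change of 2.3 (limma adjusted p = 0.137). Mean signal was 0.967 in the parental cultures, 15.5 at F0, 38.7 at F1 and 30.5 at F2.

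Gm13230, summed over the repeat copies in its exons, was the 1 host gene that rose among 7393 tested (0.0135%), and 0 fell (0%). Its signal was 198, 138, 154, 305 and 145 in tumours A to E, against 57.1, 66.6 and 47.3 in cultures 1 to 3. Tumour D is the highest, and the lowest tumour, B, lies far above the highest culture. The gene rose by 1.65 on the log2 scale (SE 0.28, limma adjusted p = 0.00623). The call was lost without culture 1 (limma adjusted p = 0.0769) and in the 8 libraries alone (0.112), with the fold change between 1.5 and 1.66 in these fits and with the library letter as a block. Over all hosts 629 had an unadjusted p under 0.05, and edgeR called 1 and DESeq2 7.

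Its called copies moved in the same way. The MurSatRep1 copy at chr4:145449610-145449810, whose exon also belongs to the noncoding gene Platr16, had 47.4, 41.5, 42.2, 73.6 and 38.2 in tumours A to E, against 14.5, 19.2 and 11.6 in cultures 1 to 3. The longer MurSatRep1 copy at chr4:145450251-145450647, of 397 bases, had 74.7, 42.6, 52.7, 129 and 53.6 in tumours A to E, against 27.1, 23.2 and 12.6 in cultures 1 to 3. The MMSAT4 copy at chr4:145450782-145450875 had 60.1, 29.5, 34.8, 67.9 and 33.6 in tumours A to E, against 9.68, 15.1 and 13.5 in cultures 1 to 3. In each of them tumour D is the highest library, and no tumour overlaps a culture. The limma fold changes were 1.61 (SE 0.29, adjusted p = 0.0121), 1.66 (SE 0.33, adjusted p = 0.0384) and 1.69 (SE 0.28, adjusted p = 0.00366), in that order. The tested but uncalled MurSatRep1 copy between them had 10.9, 17.5, 20.02, 30.6 and 13.6 in tumours A to E, against 3.87, 4.04 and 9.65 in cultures 1 to 3 (limma adjusted p = 0.17). Other exon copies of Gm13230 were too low to be tested. MurSatRep1 at chr4:145449744-145450225 averaged 2.95 in F2 and 2.33 in the cultures. MMSAT4 at chr4:145449811-145450250 averaged 2.16 in F2 and 0 in the cultures.

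Signal also rose past the annotated end of the pseudogene. An RMER15 copy, a rodent LTR of 306 bases, lies 551 bases beyond it at chr4:145451439-145451744. Its signal was 78.4, 34.98, 59.02, 109 and 51.8 in tumours A to E, against 20.3, 11.1 and 12.6 in cultures 1 to 3. Tumour D is again the highest and tumour B the lowest of the 5, and the groups do not overlap. The copy rose by 2.05 on the log2 scale (SE 0.34, limma adjusted p = 0.00366). Without culture 2 the adjusted p was 0.0588 for RMER15, and without culture 1 it was 0.0686 for MMSAT4 and for both MurSatRep1 copies (limma). Without tumour D it was 0.0998 for the shorter MurSatRep1 copy and 0.209 for the longer, and without culture 3 it was 0.107 and 0.215. Leaving out tumour A or culture 2 also took the longer copy's adjusted p to 0.108 and 0.0666, and the fit of 37 libraries took it to 0.0662.

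No other host gene of the zinc finger neighbourhood was called. Of 20 tested host genes on distal chromosome 4, 11 had a fold change above 0, with a median of 0.17 on the log2 scale, and Gm13230 was the 1 called. Fv1, which encodes a retroviral capsid restriction factor, averaged 221 ± 13.3 in F2 and 182 ± 66.3 in the cultures (limma adjusted p = 0.83). Zfp984 averaged 358 ± 69.4 in F2 and 317 ± 48.5 in the cultures (limma adjusted p = 0.899). Of 307 tested hosts whose name starts with Zfp, 0 were called, 149 had a fold change above 0, and the median was -0.01, against -0.02 over all tested hosts. As whole subfamilies MurSatRep1 and MMSAT4 were not called. MurSatRep1 averaged 47254 ± 3779 in F2 and 46228 ± 2828 in the cultures, and MMSAT4 25512 ± 2994 in F2 and 27066 ± 1824 in the cultures.

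ORR1D1, an LTR of the MaLR group, rose at chr4:21911857-21912209. The copy lies in the 3' UTR of Coq3, which encodes a methyltransferase of ubiquinone synthesis. Its signal was 32.8, 33.9, 33.7, 34.4 and 17.3 in tumours A to E, against 7.74, 11.1 and 11.6 in cultures 1 to 3. Tumours A to D lie within 2 of each other and tumour E, the lowest, stays above the cultures. The copy rose by 1.47 on the log2 scale (SE 0.28, limma adjusted p = 0.0311). This was the least stable of the 7 calls, lost in 13 of 22 alternatives, with adjusted p between 0.0556 and 0.227 when a library other than tumour E was left out.

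**Figure D1:**
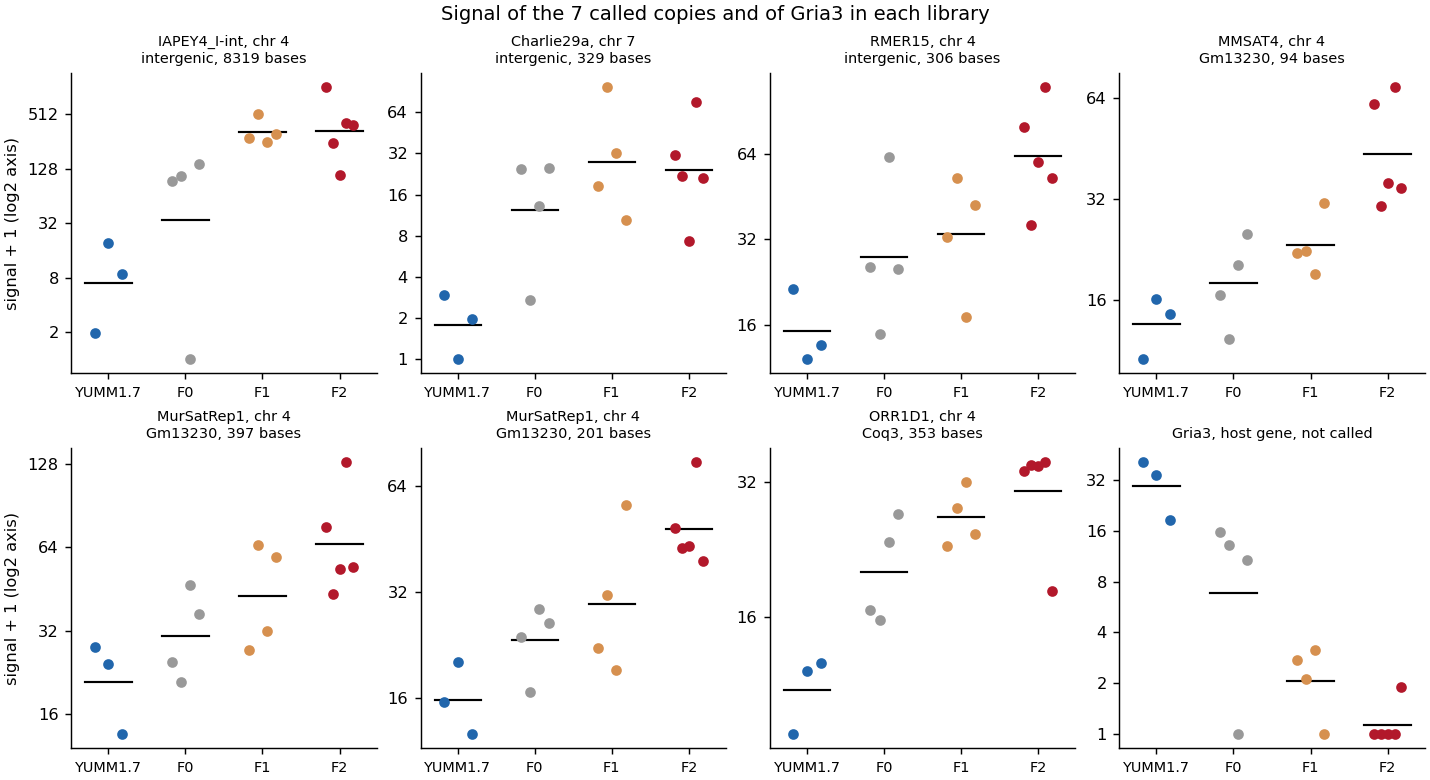
Signal of the 7 called copies and of Gria3, a host gene that was not called, in every library, as signal + 1 on a log2 axis in order of passage (3 parental cultures, then 4 F0, 4 F1 and 5 F2 libraries). Points are libraries and bars are group means of the log2 values. All F2 points lie above all culture points in each of the 7 copies and below them in Gria3.

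Between neighbouring passages the same fit gave few calls at the first and last step. No copy was called between F0 and YUMM1.7 cells, where 2854 had an unadjusted p under 0.05, or between F2 and F1, where 2596 did. Between F1 and F0, 25 of 33215 copies rose and 64 fell. The median log2 fold change over all tested copies was -0.229 at that step, against 0.13 at the first and 0.088 at the last. Other scalings of the libraries were not tried for these steps, and why falls outnumbered rises was not tested. These comparisons share libraries with each other and with the comparison of F2 and YUMM1.7 cells. For the IAPEY4_I-int copy the fitted log2 steps were 2.33 (F0 over YUMM1.7 cells), 3.23 (F1 over F0) and 0.05 (F2 over F1).

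Copies whose F2 values all lay above or all below the cultures were more frequent than calls. They numbered 769 of 33215 copies higher (2.32%) and 666 lower (2.01%). With 5 libraries against 3, groups that do not differ separate fully with a probability of 0.0357, both directions together (two-sided exact permutation test). Lack of overlap alone is therefore weak evidence of a difference. None of the copies with lower signal in F2 passed the test. The smallest p was at an ID_B1 copy, a SINE, at chr1:71644648-71644810 in an exon of Fn1, the gene of fibronectin. Its signal was 1.82, 2.19, 2.11, 4.78 and 3.63 in tumours A to E, against 43.5, 7.07 and 23.2 in cultures 1 to 3. Culture 1 is the highest and every tumour lies below the lowest culture. Its fitted log2 fold change was -2.45 (limma adjusted p = 0.0806), and edgeR and DESeq2 called it lower. MTA_Mm at chr8:124553195-124555065, an intergenic MaLR element, averaged 53.1 ± 9.83 in F2 and 116 ± 12.1 in the cultures with a fold change of -1.13 (limma adjusted p = 0.202). An Lx2B LINE fragment in an exon of the pseudogene C920009B18Rik, at chr10:22309576-22310608, averaged 1.302 ± 1.26 in F2 and 7.82 ± 1.800 in the cultures (limma adjusted p = 0.17). The intergenic MLT1D copy at chr4:16117911-16118266 averaged 6.26 ± 3.54 in F2 and 19.3 ± 2.55 in the cultures, and the intergenic RSINE1 copy at chr2:166946672-166946769 averaged 1.75 ± 0.752 in F2 and 12.04 ± 3.46 in the cultures. Their limma adjusted p were 0.251 and 0.26.

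Several proviruses had large differences that did not pass, and they are named after their values were seen. As for IAPEY4_I-int, the assignment of reads to single copies of these proviruses is uncertain. A murine leukaemia type provirus in an intron of Camk2b, the gene of a calcium-dependent kinase subunit, is annotated as adjoining pieces. Its MuLV-int piece at chr11:6005652-6008773 had 825, 438, 424, 862 and 274 in tumours A to E, against 157, 84.8 and 63.7 in cultures 1 to 3. The RLTR4_MM-int piece at chr11:6008771-6011515 had 919, 501, 524, 954 and 356 in tumours A to E, against 193, 120.1 and 63.7 in cultures 1 to 3. In both the groups do not overlap, culture 1 is the highest culture, and tumours A and D are the highest libraries. The fold changes were 2.43 and 2.40, each with limma adjusted p = 0.0806, and DESeq2 called both. An intergenic MMERVK10D3_I-int provirus at chr11:31545550-31548795 had 66.5, 47.01, 92.7, 120.5 and 49.98 in tumours A to E, against 0.968, 3.03 and 1.93 in cultures 1 to 3. Every tumour there stands far above the cultures, which hold 1 to 3 reads (limma adjusted p = 0.108). An intronic L1MC4 copy in Ubxn2b at chr4:6197435-6198111 averaged 23.5 ± 8.45 in F2 and 5.901 ± 1.77 in the cultures (limma adjusted p = 0.0564).

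Some copies were high in single libraries, and those described here are named after their values were seen. An ID_B1 copy in the 3' UTR of Car9, the gene of a hypoxia-induced carbonic anhydrase, at chr4:43513290-43513489, had 7.29, 7.65, 4.21, 85.1 and 10.9 in tumours A to E, against 0, 0 and 0 in cultures 1 to 3. Tumour D accounts for most of it (limma adjusted p = 0.0806). An intergenic ID_B1 copy at chr5:142955278-142955393 had 1471, 1.09, 0, 0 and 819.6 in tumours A to E, against 0, 0 and 0 in cultures 1 to 3. A B4 copy in an intron of Zdhhc4 at chr5:143323393-143323509 had 1.82, 681, 349.9, 0.956 and 1.82 in tumours A to E, against 0, 0 and 0 in cultures 1 to 3. These copies were present in some tumours and at or near 0 in others of the same passage. An L1MdF_IV copy in an intron of Pkd2, at chr5:104469647-104470668, was listed at 0 in all 5 tumours and had 0.968, 0 and 1526 in cultures 1 to 3. An RLTR15 copy at chr7:144978190-144978261 had 0, 0, 0, 497 and 358 in tumours A to E, against 462, 487 and 322 in cultures 1 to 3, so that 3 of 5 tumours were at 0 while the other 2 were in or near the range of the cultures. Over all copies 15 reached a signal of 20 in a tumour and were at 0 in every culture, 12 of them in 1 tumour and 3 in 2. The reverse held for 5, of which 4 were in 1 culture. A copy at 20 or more in 1 library and at 0 in another of the same group occurred 165 times within F2 and 71 times within the cultures, which are fewer libraries.

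**Figure D2:**
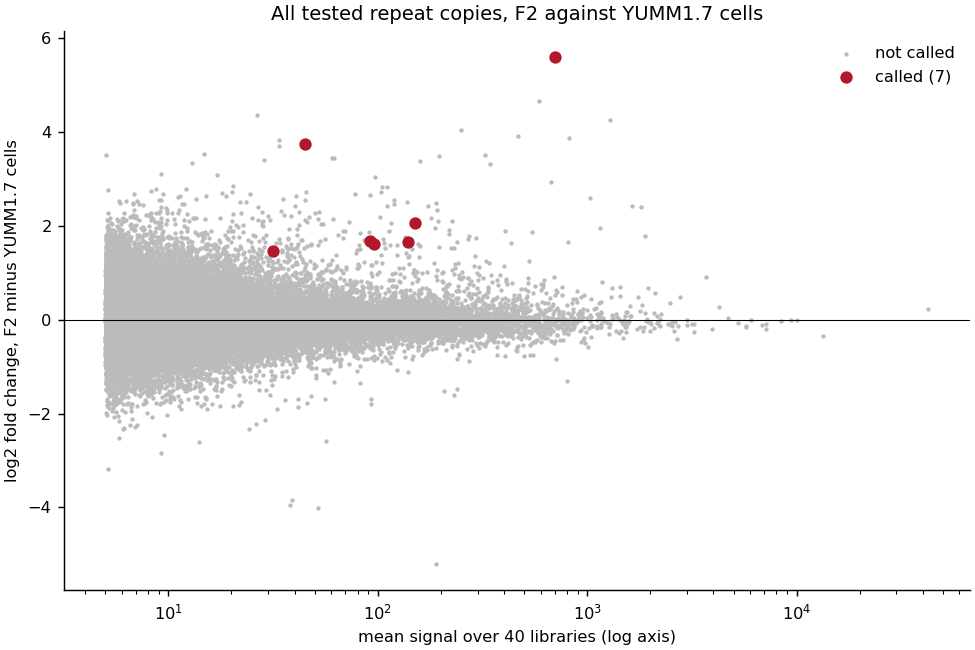
Log2 fold change of F2 over YUMM1.7 cells for each tested copy against its mean signal over the 40 libraries, on a log axis, with the 7 called copies as large points. Most copies lie near 0, all called copies lie above it and no point below 0 was called.

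At the level of whole subfamilies none passed the test. Of 1004 tested subfamilies 0 rose and 0 fell (0% each), 53 had an unadjusted p under 0.05, and edgeR and DESeq2 each called 1, which was lower. Groups did not overlap for 21 higher (2.09%) and 13 lower (1.29%). The smallest adjusted p was 0.0562 (limma), at RLTR20A2B_MM, an LTR that is named after its values were seen. Its signal was 34.6, 17.5, 13.7, 25.8 and 25.4 in tumours A to E, against 57.1, 32.3 and 76.3 in cultures 1 to 3. Culture 3 is the highest and the groups overlap. Its fold change was -1.19, and it was the subfamily that edgeR and DESeq2 called. Without culture 2 the limma adjusted p was 0.00395 and without culture 3 it was 0.63.

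Of the young retroviral families, IAPEz-int, the most abundant IAP, had 5829, 7288, 8334, 5933 and 4955 in tumours A to E, against 7553, 8024 and 7492 in cultures 1 to 3. Tumour E is the lowest of the 8 and tumour C the highest. RLTR4_MM-int, of the leukaemia virus type, had 5995, 8273, 6493, 6293 and 4872 in tumours A to E, against 5227, 5003 and 5026 in cultures 1 to 3. MMVL30-int, a VL30 element, had 13844, 45262, 22714, 20683 and 22119 in tumours A to E, against 22700.0, 20776 and 23903 in cultures 1 to 3. Tumour B alone is far above the rest, tumour A is the lowest of the 8, and the other tumours lie close to the cultures. MERVL-int, which is expressed in the early embryo, had 898, 790.4, 878, 650.2 and 1002 in tumours A to E, against 1237, 893 and 763 in cultures 1 to 3. All 4 overlap between the groups, with fold changes between -0.27 and 0.31 and limma adjusted p between 0.764 and 0.994. MMERGLN-int, a GLN gammaretrovirus and the most abundant retroviral sequence among these lists, averaged 59468 ± 20102 in F2 and 49858 ± 4484 in the cultures, and MuLV-int 18130.0 ± 3337 in F2 and 22113 ± 10935 in the cultures. The larger SD was in F2 for MMERGLN-int and in the cultures for MuLV-int, and neither was called.

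LINE-1 and SINE signal was close in both groups. L1MdTf_I, a young LINE-1 subfamily, had 126, 143, 131, 120.5 and 121 in tumours A to E, against 187, 118 and 156 in cultures 1 to 3. L1MdA_I, another young one, had 431, 415, 477, 478 and 386 in tumours A to E, against 397, 407 and 439 in cultures 1 to 3. Their groups overlap, and their fold changes were -0.24 and 0.08 (limma adjusted p = 0.919 and 0.957). B1_Mm, a young SINE, had 18116, 18601, 16231, 17285 and 18754 in tumours A to E, against 18703, 17501 and 17096 in cultures 1 to 3. B2_Mm2, of the B2 family, had 29234, 23852, 23766, 25618 and 31273 in tumours A to E, against 26055, 26580.0 and 30276 in cultures 1 to 3. Tumours and cultures overlap in both. Their fold changes were 0.00 and -0.05, and the direction of the first changes with the scaling of the libraries.

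By list no member of any of 20 groups of subfamilies was called. Among 24 tested IAP subfamilies 11 had a fold change above 0, and the median was -0.03, against -0.01 over all subfamilies. The highest unadjusted ranks within it were IAP1-MM_I-int, with 1026 ± 92.97 in F2 and 824 ± 59.6 in the cultures, and IAPEY4_I-int. The MMERVK10C list had 10 of 12 above 0 and a median of 0.12, led in abundance by RLTR10-int (755 ± 125 in F2 and 736 ± 88.9 in the cultures) and MMERVK10D3_I-int (648 ± 174 in F2 and 430.1 ± 62.5 in the cultures). The MMERGLN list had 3 of 4 above 0 and a median of 0.16, with RLTR1B-int at 406 ± 79.00 in F2 and 289 ± 29.8 in the cultures and no overlap. MuLV had 2 of 3 above 0 (median 0.13). For ETn/MusD the count was 1 of 5 (median -0.06), with ETnERV-int at 212 ± 27.1 in F2 and 229.6 ± 29.6 in the cultures and MMETn-int at 179 ± 22.98 in F2 and 185 ± 16.8 in the cultures. VL30 had 2 of 5 (median -0.02), where RLTR6-int averaged 5118 ± 545 in F2 and 5966 ± 1077 in the cultures. MERVL had 3 of 8 (median -0.03), with MT2B2 at 9389 ± 911 in F2 and 9806 ± 1970.0 in the cultures and MT2B at 4141 ± 232 in F2 and 4081 ± 227 in the cultures. In none of these lists did an adjusted p fall under 0.73 (limma).

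The older and the non-retroviral lists lay as near to 0. MaLR elements had 42 of 87 above 0 with a median of -0.01, and their most abundant names, ORR1B1-int and MTD, averaged 24670.0 ± 1489 in F2 and 25901 ± 2249.6 in the cultures, and 13433 ± 588 in F2 and 13325 ± 849 in the cultures. MTA_Mm-int, of the same group, averaged 4233 ± 157 in F2 and 4772 ± 382 in the cultures without overlap (limma adjusted p = 0.73). RMER elements had 26 of 52 (median 0.00), where RMER19B averaged 4635 ± 581 in F2 and 5044 ± 319.7 in the cultures and RMER1B 3904 ± 92.7 in F2 and 3815 ± 227 in the cultures. Young L1 had 5 of 13 (median -0.03), L1Md F lineage names 6 of 12 (median -0.02) and older L1 42 of 92 (median -0.01). Within them L1MdA_VII averaged 2122 ± 246 in F2 and 1999.9 ± 77.9 in the cultures, L1MdGf_II 1678 ± 194 in F2 and 1892 ± 207 in the cultures, L1MdF_III 6687 ± 1691 in F2 and 7017 ± 553 in the cultures, L1MdFanc_I 2589.9 ± 649.8 in F2 and 2550.2 ± 808 in the cultures, Lx8 12059 ± 1263 in F2 and 11314 ± 1036 in the cultures and Lx9 7503 ± 682 in F2 and 7881 ± 131 in the cultures. B1 SINEs had 4 of 15 above 0, B2 2 of 5, B4 2 of 7 and MIR 1 of 5, with medians between -0.07 and -0.03. The most abundant of these, ID_B1, averaged 93488 ± 2776 in F2 and 96365 ± 3842 in the cultures, and B3 81816 ± 5559.5 in F2 and 83206 ± 1542 in the cultures. PB1D10 averaged 59495 ± 1935 in F2 and 59785 ± 854 in the cultures, B1_Mus1 53905 ± 1368 in F2 and 55590.0 ± 1268 in the cultures, B3A 36106 ± 2569 in F2 and 36082 ± 2558 in the cultures, RSINE1 56219 ± 3366 in F2 and 55730.0 ± 2869.7 in the cultures, MIRb 15985 ± 1336 in F2 and 16739 ± 521 in the cultures and MIR3 9999 ± 909 in F2 and 10963 ± 609 in the cultures.

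L2 had 3 of 6 above 0 (median 0.00), with L2b at 6646 ± 358 in F2 and 6585 ± 212 in the cultures and L2a at 5280.5 ± 323 in F2 and 5491 ± 689 in the cultures. DNA transposons had 61 of 147 above 0 with a median of -0.05, and 9 of them had an unadjusted p under 0.05. URR1B averaged 8642 ± 712 in F2 and 8118 ± 120.5 in the cultures and URR1A 6571 ± 529.8 in F2 and 6576 ± 299 in the cultures. Zaphod2, a hAT transposon, averaged 420.4 ± 16.8 in F2 and 536 ± 43.6 in the cultures, and MER58B, another, 1701 ± 93.3 in F2 and 1951 ± 94.6 in the cultures, both without overlap and with limma adjusted p = 0.73 and 0.764. Satellites had 1 of 4 (median -0.09). The conserved UCON and MARE names had 19 of 49 (median -0.13), led by X12_DNA (4909 ± 464 in F2 and 5587 ± 1523 in the cultures) and X9_LINE (2498 ± 330.5 in F2 and 2808 ± 934 in the cultures). Other subfamilies with small p and no overlap, none of them called, were RLTR26D_MM with 36.1 ± 6.96 in F2 and 20.02 ± 5.38 in the cultures, MLTR18B_MM with 2959 ± 178 in F2 and 2327 ± 347 in the cultures and LTR80A with 5.99 ± 2.82 in F2 and 1.32 ± 1.14 in the cultures. At the other end, among subfamilies without overlap, RLTR19B averaged 16.3 ± 3.18 in F2 and 29.3 ± 9.39 in the cultures and RLTR9C 18.8 ± 4.35 in F2 and 30.1 ± 6.29 in the cultures.

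Host genes are read here through the repeat copies in their exons, mostly in UTRs, so a value is a level of those copies and not of the whole gene. Beside Gm13230 the groups did not overlap for 207 hosts higher (2.8%, Gm13230 among them) and 162 lower (2.19%). Cldn12, the gene of a tight junction claudin, averaged 688 ± 61.6 in F2 and 416 ± 85.3 in the cultures (limma adjusted p = 0.103). Hspb7, the gene of a small heat shock protein of muscle, had 61.1, 319, 116, 153 and 159 in tumours A to E, against 10.6, 39.4 and 23.2 in cultures 1 to 3 (limma adjusted p = 0.139). Tumour B is the highest there and every tumour lies above the highest culture. Gm15983, annotated antisense to another gene, averaged 10.9 ± 4.17 in F2 and 1.96 ± 0.966 in the cultures (limma adjusted p = 0.139). The sources used here do not say whether counting used strand, so its reads and those of its partner cannot be told apart.

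Gria3, the gene of an AMPA type glutamate receptor subunit, was at or near 0 in every F2 tumour. Its signal was 0, 0, 0, 0 and 0.909 in tumours A to E, against 39.7, 33.3 and 17.4 in cultures 1 to 3. The single tumour value stands for 1 read. The fitted difference of -4.70 depends on the added 1, is no bound and was not called (limma adjusted p = 0.139), while the fit of the 8 libraries alone gave adjusted p = 0.00398. The mean was 30.1 in the parental cultures, 9.11 at F0, 1.26 at F1 and 0.182 at F2. The other hosts at the low end were C920009B18Rik (7.07 ± 3.79 in F2 and 26.7 ± 13.7 in the cultures), the clustered protocadherin gene Pcdhb22 (31.9 ± 6.58 in F2 and 85.1 ± 33.9 in the cultures), Gm10654 (9.17 ± 1.84 in F2 and 32.5 ± 13.3 in the cultures) and Gm44200 (0.794 ± 0.787 in F2 and 6.501 ± 2.34 in the cultures). None of them was called (limma adjusted p between 0.139 and 0.263).

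Among the lists of host genes, interferon response genes stood out by sign. All 33 tested members had a fold change above 0, 19 of them above 1, and 8 had an unadjusted p under 0.05, but 0 were called (smallest limma adjusted p = 0.263). The median was 1.09, against -0.02 over all tested hosts. These genes are induced together by interferons, and their products sense or degrade viral RNA. They were read in the same 8 libraries, so that their signs are not independent of each other. The lists and members were chosen with earlier results of these data known. The list summed to 6621, 5854, 8452, 16990 and 3020 in tumours A to E, against 2119, 3712 and 5734 in cultures 1 to 3. The groups overlap, since culture 3 is above tumour E and close to tumour B. Oas3, Ifi44 and Usp18 are named after their values were seen, for their large differences. Oas3, which encodes an enzyme that activates RNase L, had 9.11, 6.56, 72.7, 179.8 and 2.73 in tumours A to E, against 0, 0 and 0.966 in cultures 1 to 3. Ifi44, an interferon-induced gene, had 150.4, 163, 335, 1276 and 47.3 in tumours A to E, against 2.903, 14.1 and 49.2 in cultures 1 to 3. Usp18, the gene of the enzyme that removes ISG15 from proteins, had 168, 115, 288, 624 and 13.6 in tumours A to E, against 0.968, 43.4 and 66.6 in cultures 1 to 3. In all of them tumour D is the highest tumour and tumour E the lowest. Oasl2, of the same family as Oas3, had 299.8, 248, 629, 1501 and 48.2 in tumours A to E, against 8.71, 103 and 129 in cultures 1 to 3, and Eif2ak2, the gene of the kinase PKR, averaged 1319 ± 605 in F2 and 812 ± 224 in the cultures. The summed signal also varied within earlier passages, at 8163, 1568, 3066 and 3590 in the F0 tumours and 1940, 11250, 2739 and 3028 in the F1 tumours.

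Class I antigen presentation genes, which interferons also induce, had 10 of 13 members above 0, a median of 0.47 and 0 calls. Tap1, the gene of a subunit of the peptide transporter, had 16.4, 6.56, 13.7, 23.9 and 3.63 in tumours A to E, against 0, 1.01 and 0 in cultures 1 to 3. The groups do not overlap, and the cultures hold 0 or 1 read (limma adjusted p = 0.139). Nlrc5, the class I transactivator, averaged 28.5 ± 21.7 in F2 and 6.0 ± 7.11 in the cultures and H2-Q4 257 ± 249 in F2 and 52.7 ± 26.03 in the cultures, with fold changes of 2.34 and 1.80 (limma adjusted p = 0.338 and 0.579), and both are named after their values were seen. H2-D1 averaged 1843 ± 1081 in F2 and 887 ± 185 in the cultures and Tapbp 2402 ± 1368 in F2 and 1599 ± 877 in the cultures. Of the immune genes, given above by list, Cd14 was the 1 tested, with 7.65 to 26.2 in F2 and 9.09 to 17.4 in the cultures. Of 12 with copies, 6 were at 0 in all 8 libraries, Ptprc, Cd3e and Csf1r among them. A 0 over repeat copies does not show that a gene is silent, and the presence of immune cells was not tested.

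Retroelement silencing factors had 16 of 24 above 0 with a median of 0.17. Adar, which encodes an RNA-editing enzyme that interferon induces, averaged 10.4 ± 2.67 in F2 and 3.29 ± 1.59 in the cultures, and Mov10, the gene of an RNA helicase that restricts retroelements, 99.6 ± 32.3 in F2 and 54.4 ± 12.2 in the cultures. Their limma adjusted p were 0.313 and 0.474, and both are named after their values were seen. Zc3hav1, the gene of the antiviral zinc finger protein ZAP, averaged 595 ± 158 in F2 and 563 ± 33.7 in the cultures, and Samhd1, the gene of a nucleotide hydrolase, 603 ± 149 in F2 and 496 ± 87.9 in the cultures. Dnmt3a and Hells, of the same list, went the other way and are also named after their values were seen. Dnmt3a averaged 9.89 ± 4.31 in F2 and 19.96 ± 4.97 in the cultures (limma adjusted p = 0.629). Hells averaged 285 ± 89.3 in F2 and 423 ± 191 in the cultures (limma adjusted p = 0.661). The p53 and stress list had 6 of 8 above 0 and a median of 0.42. Of its p53 targets, Zmat3, Ccng1 and Mdm2 averaged 849 ± 192 in F2 and 476 ± 87.3 in the cultures, 1888 ± 285 in F2 and 1151 ± 319 in the cultures, and 1031 ± 332 in F2 and 771 ± 142 in the cultures. None of them was called (limma adjusted p = 0.393, 0.546 and 0.844), and Zmat3 is named after its values were seen. Trp53inp1, Cdkn1a and Bax, of the same list, had fold changes of 1.0, 0.36 and -0.09, with overlap between the groups. Their limma adjusted p were 0.463, 0.96 and 0.989, and they too are named after their values were seen.

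The lists on cell state were divided. Cell cycle genes had 6 of 15 above 0 (median -0.09), with Top2a at 958 ± 193 in F2 and 924 ± 489 in the cultures and Mcm6 at 907 ± 279 in F2 and 1017 ± 440.4 in the cultures. Hypoxia and glycolysis genes had 3 of 6 (median -0.03), with Hif1a at 1023 ± 107 in F2 and 1109 ± 264 in the cultures and Pdk1 at 809.9 ± 214 in F2 and 679 ± 41.5 in the cultures. Egln3, the gene of a hypoxia-induced prolyl hydroxylase, averaged 197 ± 79.00 in F2 and 85.5 ± 14.8 in the cultures without overlap (fold change 1.13, limma adjusted p = 0.238). Fibroblast genes had 0 of 4 above 0 and a median of -0.41. Pdgfra, a receptor gene of mesenchymal cells, averaged 721 ± 262 in F2 and 1194 ± 401 in the cultures, and Pdgfrb 609 ± 107 in F2 and 845 ± 103 in the cultures (limma adjusted p = 0.548 and 0.761). The fibroblast list summed to 914 to 2239 in F2 and 1652 to 2802 in the cultures, with Fap at 0 in all 8. Dedifferentiated melanoma genes had 4 of 7 (median 0.09), with Tead1 at 1507 ± 190.0 in F2 and 1438 ± 383 in the cultures and Tgfbr2 at 979.9 ± 199 in F2 and 891 ± 162 in the cultures. The melanocyte list had 1 of 2, with Met at 340.4 ± 181 in F2 and 260.5 ± 47.9 in the cultures and Pax3 at 9.96 ± 4.29 in F2 and 18.6 ± 4.79 in the cultures. MAPK output genes had 0 of 2 (median -0.24), with Etv1 at 358 ± 123 in F2 and 459.9 ± 194 in the cultures and Epha2 at 24.7 ± 19.7 in F2 and 23.4 ± 11.8 in the cultures, where the mean of the log2 values was lower in F2. Imprinted genes had 3 of 4 (median 0.06), among them the antisense transcripts Airn (342 ± 71.8 in F2 and 330.2 ± 79.9 in the cultures) and Kcnq1ot1 (42.4 ± 17.1 in F2 and 45.5 ± 27.6 in the cultures). The other way went Rasgrf1, the gene of a Ras exchange factor, with 8.800 ± 8.29 in F2 and 26.6 ± 25.6 in the cultures (fold change -1.73, limma adjusted p = 0.513). Egln3 and Rasgrf1 are named after their values were seen. The 1 tested immune gene, Cd14, averaged 13.3 ± 7.55 in F2 and 13.02 ± 4.16 in the cultures. No member of these lists was called.

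**Figure D3:**
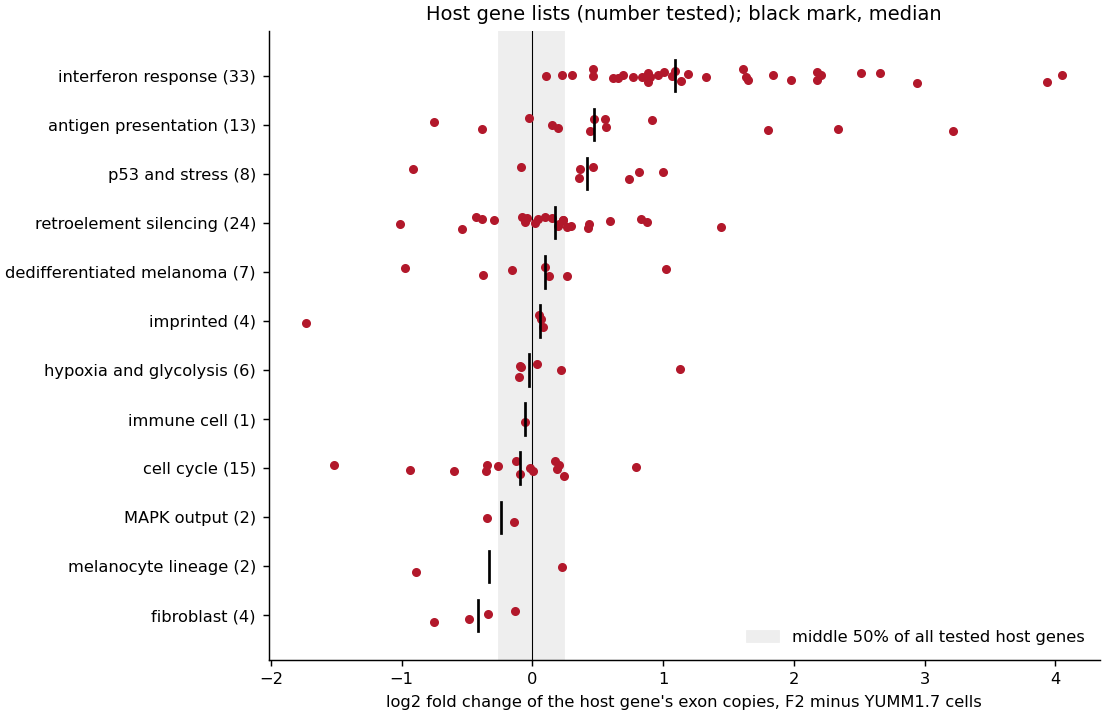
Log2 fold change of F2 over YUMM1.7 cells for the tested members of each list of host genes, with the number tested in brackets, the list's median as a black mark and the middle 50% of all 7393 tested hosts as a grey band. All 33 interferon response genes lie above 0, with a median of 1.09, and the 4 fibroblast members lie below it.

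The shares of signal by place in genes differed by less than the spread between libraries. Copies in 3' UTRs held 47.2 ± 4.21% of a library's signal in F2 and 47.8 ± 0.92% in the cultures, and coding exons held 13.01 ± 1.25% in F2 and 13.4 ± 1.78% in the cultures. Intronic copies held 22.4%, 14.3%, 15.8%, 17.6% and 24.4% in tumours A to E, against 16.7%, 17.5% and 20.3% in cultures 1 to 3. Tumours A and E are the highest and tumour B the lowest of all 8, and the groups overlap. The difference of 0.740 percentage points had p = 0.786 in a two-sided exact permutation test, and the 4 shares tested (introns, 3' UTRs, coding exons and intergenic copies) had adjusted p = 0.857. With 5 libraries against 3 the smallest p of this test is 0.0357. Intergenic copies held 7.86 ± 0.84% in F2 and 8.13 ± 0.43% in the cultures.

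Copies on chromosome 3 lay higher in F2 as a group, a difference that did not pass the test adjusted over chromosomes. A chromosome's shift is the median log2 deviation of its exon copies with a mean of at least 20 from their mean over all libraries, relative to the library's median chromosome. Over 370 copies it was 0.31, 0.16, -0.02, 0.24 and 0.30 in tumours A to E, against -0.17, -0.13 and -0.14 in cultures 1 to 3. The groups do not overlap, and tumour C lies nearest to the cultures. The difference of 0.35 (means 0.20 ± 0.13 in F2 and -0.15 ± 0.02 in the cultures) had p = 0.0357 in the two-sided exact permutation test, the smallest this design can give. Adjusted over 20 chromosomes (Benjamini-Hochberg) it was 0.714. Chromosome 3 was the 1 of 20 chromosomes without overlap between the groups. The shift was -0.10, -0.15, -0.14 and -0.07 in the F0 tumours, close to the cultures, and 0.03, 0.09, 0.15 and 0.19 in the F1 tumours.

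The difference was seen in copies of most kinds. Copies, host genes and bins were read in the same 8 libraries as the shift, and share exon copies with it. Their counts are therefore not independent of the shift or of each other, and are no further test of it. Of 1607 tested copies on chromosome 3, 117 lay without overlap higher (7.28%) and 3 lower (0.187%), against 652 higher and 663 lower of 31608 on the other chromosomes, and 72.7% had a fold change above 0, against 48.8% elsewhere. The median fold change was 0.32 on chromosome 3 and -0.01 elsewhere. It was 0.30 in 3' UTRs, 0.35 in introns, 0.34 in coding exons and 0.21 between genes. In 5' UTRs 14 of 25 copies (56.0%) were above 0 on chromosome 3, against 56.5% elsewhere. Of 396 tested host genes there 76.3% were above 0, against 46.1% of 6997 hosts elsewhere, and 50 lay without overlap higher and 2 lower, against 157 higher and 160 lower elsewhere. In bins of 20 Mb the difference ranged from 0.09, in a first bin of 15 copies, to 0.51, and was above 0 in all 8 bins, with overlap between the groups in 5 of them. No copy of chromosome 3 was called. Of the 33 interferon response genes tested, 2 lie on this chromosome. Chromosome 19 had the next largest difference, -0.18 with overlap (exact permutation p = 0.179), at 0.22 ± 0.19 in F2 and 0.41 ± 0.10 in the cultures.

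**Figure D4:**
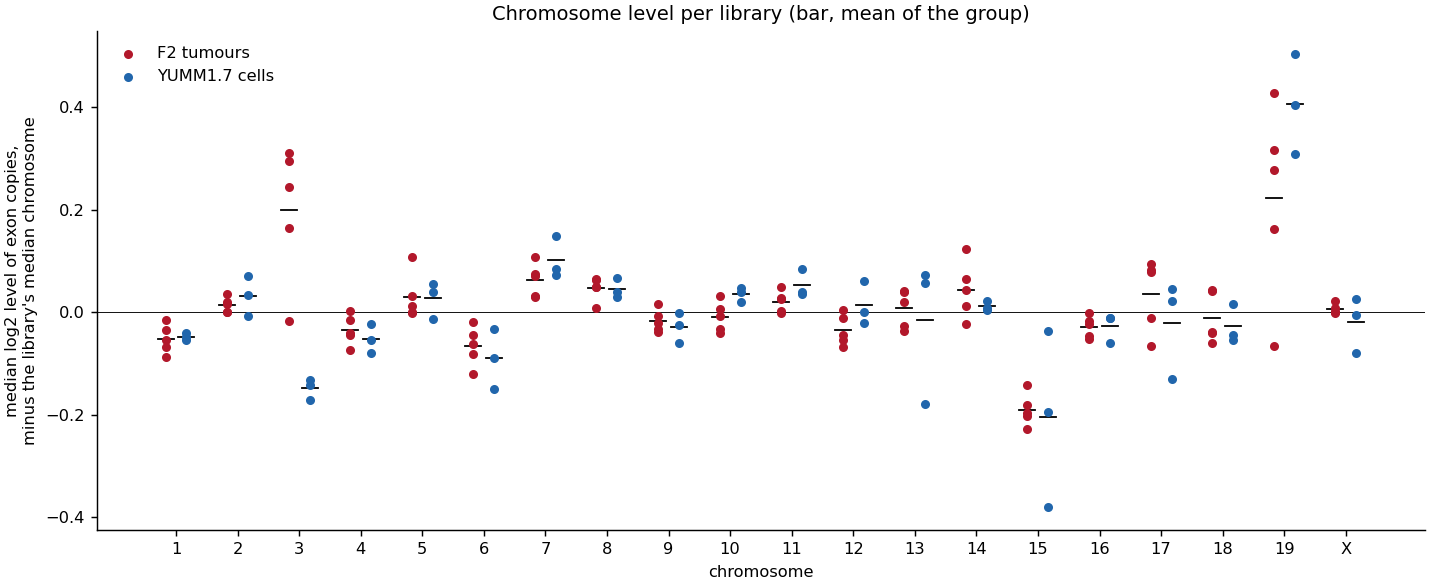
Chromosome shifts, in log2 units relative to each library's median chromosome, for the 5 F2 libraries and the 3 YUMM1.7 cultures, with points for libraries and bars for group means. Chromosome 3 is the 1 chromosome where all F2 points lie above all culture points.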

How the data were processed

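Poly(A) RNA of 8 libraries (F2 tumours A to E, YUMM1.7 cultures 1 to 3) was read from the table of 40 libraries in 11 groups. The authors deposited signal, whole reads per repeat copy divided by 1 factor per library, as the values themselves show: 100% were whole multiples of 1 read within 0.1. Division recovered the read counts. Tools listed by the submitters' processing notes, without the step each served, are featureCounts 1.5.0-p3, HISAT2 2.0.5 and StringTie 1.3.3b, with build mm10.

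Copies (33215 of 835636, with 86.4% of the signal of the 8 libraries), sums by repeat name (1004 of 1237) and sums of exon copies by gene (7393 of 18143) whose mean over the 40 libraries reached a signal of 5 were tested with limma 3.58.1 (R 4.3.3) on log2(signal + 1), with 1 mean per group, a trended prior and Benjamini-Hochberg adjustment, and called at an adjusted p under 0.05. Fold changes are limma estimates on that scale, F2 over YUMM1.7 cells, and understate low values. SD has n = 5 and 3. The recovered reads were also tested with DESeq2 1.42.0 and with edgeR 4.0.16 (quasi-likelihood). Genes and transcripts are from GENCODE M21 (GRCm38), overlapped with bedtools 2.31.1. The tables and plots used matplotlib 3.10.9, scipy 1.17.1, pandas 2.3.3 and numpy 2.4.6 in Python 3.11.15.

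Named features are called ones whose groups do not overlap, filled to 5 per direction by the smallest p, 8 fixed subfamilies and the 2 most abundant tested members of each list; others are marked as chosen after their values were seen, beside host genes of distal chromosome 4. The lists and members were chosen with earlier results of these data known. Library letters do not pair the groups. Genome sequence of the intergenic copies was not used here.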

Additional observations from a re-analysis of the deposited data

Results flagged for a closer look

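Among the 5 F2 tumours a library was singled out where its gap to the nearest other, divided by the range of the 5, exceeded Dixon's 95% critical value of 0.71. Of 75 sets of values looked at, 5 had such a library, and chance flags about 1 in 20.

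The shorter MurSatRep1 copy of Gm13230 had 73.6 in tumour D, above the other tumours (gap over range 0.74). At the ORR1D1 copy in the 3' UTR of Coq3, tumour E was low at 17.3 (0.906), still above the 3 cultures. Gria3 was at 0.909 in tumour E and at 0 in the other 4 (1.0), which is the difference of 1 read. MMVL30-int stood at 45260 in tumour B (0.718), the highest of the 8 libraries. The ID_B1 copy in the 3' UTR of Car9 had 85.1 in tumour D (0.917) and was listed at 0 in all cultures.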

How the results depend on the processing

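Of 33215 copies 7 were called, 31 with DESeq2, 2 in the fit on the 8 libraries alone, 11 with a pseudocount of 0.5, 4 with a pseudocount of 5 and 510 with no filter, where 29 were higher and 481 lower; 21 of the 510 were among the tested copies, and 6 were shared with the 7. Leaving out each replicate gave 2 to 12 called loci, 0 to 1 called subfamilies and 0 to 5 called host genes. Against 0 called subfamilies there was 1 with DESeq2, edgeR, TMM scaling, median-of-ratios scaling, a filter at a mean of 20 and the intron share as a covariate, and there were 2 over copies outside exons alone. Against 1 called host gene there were 7 with DESeq2, 4 in the fit on the 8 libraries alone and 18 with no filter. The library letters were also tried as a replicate block in the 8 libraries: 1 called locus, which was lower and none of the 7, 2 called subfamilies and 0 called host genes. The letters share only a name: deviations from the group means correlated at -0.0335 for A, 0.0462 for B and -0.157 for C, and not every library correlated best with its own letter. The difference in intron share had a range of -0.629 (without tumour E) to 1.89 percentage points (without tumour B), and was -0.139 without tumour A. TMM scaling, median-of-ratios scaling, filters at a mean of 20 or of 5 over the 8 libraries, array weights and, added after seeing the data, a fit of 37 libraries without the second library of 3 tumours left the count of called loci between 5 and 10. Where a result passed or missed the threshold under an alternative, the cause was not tested.

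Directions of uncalled features near 0 changed sign (log2 fold change under the alternative) with TMM scaling (B1_Mm -0.00317, B3A -0.00413), the intron share as a covariate (B1_Mm -0.00645, RLTR10-int -0.0105, B3A -0.0189, RSINE1 -0.00298), median-of-ratios scaling (B1_Mm -0.00242, B3A -0.00337), the replicate block (B1_Mm -0.011, MMETn-int 0.0211, RLTR10-int -0.0557, MTD -0.00335, L1MdFanc_I -0.126, B3A -0.0395, RSINE1 -0.0266, Cd14 0.229, Mcm6 0.0446), edgeR (PB1D10 0.00458, URR1A 0.00684, Cd14 0.0146, Epha2 0.0911, Kcnq1ot1 -0.115) and DESeq2 (Cd14 0.0307, Epha2 0.0904, Kcnq1ot1 -0.101). None of these was called in either direction. Over the fits that leave out 1 replicate the log2 fold changes of 30 such features crossed 0, with these ranges: MMVL30-int -0.203 to 0.224, MERVL-int -0.331 to 0.0171, B1_Mm -0.0258 to 0.0391, B2_Mm2 -0.111 to 0.0146, MMETn-int -0.12 to 0.0157, RLTR10-int -0.0347 to 0.126, MuLV-int -0.543 to 0.182, MT2B2 -0.203 to 0.0917, MT2B -0.0257 to 0.0508, ORR1B1-int -0.115 to 0.000978, MTD -0.0267 to 0.0624, L1MdFanc_I -0.257 to 0.198, PB1D10 -0.0219 to 0.00754, B3A -0.0402 to 0.0569, RSINE1 -0.0189 to 0.054, L2b -0.00757 to 0.0382, L2a -0.104 to 0.0499, URR1A -0.0444 to 0.0311, MurSatRep1 -0.0169 to 0.0714, X12_DNA -0.354 to 0.0431, X9_LINE -0.326 to 0.126, Tead1 -0.101 to 0.287, Cd14 -0.319 to 0.162, Zc3hav1 -0.0782 to 0.173, Top2a -0.331 to 0.565, Mcm6 -0.482 to 0.186, Hif1a -0.264 to 0.0795, Epha2 -0.524 to 0.219, Airn -0.165 to 0.184, Kcnq1ot1 -0.564 to 0.488.

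Reads per library limit low copies most: a copy at a signal of 5 rests on about 5 reads. With 5 libraries against 3 an exact test cannot go below 0.0357, and with 1 left out it cannot pass.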
